A study of Mus musculus with 12 samples.

Results

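Wide H3K9me3 domains of mouse embryonic stem cells were described in Alkbh5 del-cIDR and WT cells. Peaks of the 4 H3K9me3 libraries on chromosomes 1 to 19 were pooled and joined wherever they overlapped by at least 1 bp. The domains were chosen by the H3K9me3 peaks themselves: a joined region was kept when it measured 3000 bp or more and held a peak of all 4 libraries. Regions in 4 intervals, taken as zinc-finger gene clusters, were set aside, namely 2:174000000-178500000, 4:145000000-148000000, 12:18000000-24500000 and 13:65000000-68500000. This left 379 domains out of 56846 joined regions, of which 14034 had a peak of all 4 libraries. The 4 intervals held another 21 regions of the same kind. No annotation on the genome build of the peaks was used here, so whether other zinc-finger clusters hold some of the 379 domains was not examined, and no gene is named. All coordinates are GRCm39 and count from 1.

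All cells were of the E14TG2a line, a mouse embryonic stem cell line kept in serum with LIF, PD0325901 (a MEK inhibitor) and CHIR99021 (a GSK3 inhibitor). One genotype was Alkbh5 del-cIDR and its control was WT. The labels do not spell out cIDR, and the study's title concerns intrinsically disordered regions of demethylases. Protocols name CUT&RUN and CUT&Tag, which cut or tag DNA at antibody-bound chromatin, and the peak list names mark H3K9me3 as CUT&RUN and the other marks as CUT&Tag. There were 2 libraries for each mark and genotype. The labels name no clone and do not say whether replicates were separate cultures, so p-values measure library-to-library spread alone, and this spread may be technical. The identity of the cells was not checked here against marker genes.

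H3K9me3 marks heterochromatin. In embryonic stem cells it is laid down at many endogenous retroviruses by SETDB1, which KRAB zinc-finger proteins recruit through TRIM28, and it is bound by HP1 proteins. H3K4me3 marks active promoters, and H3K27ac marks active promoters and enhancers. ALKBH5 is a demethylase that takes the methyl group off N6-methyladenosine in RNA.

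The lists differed in length before any domain was drawn. On chromosomes 1 to 19 the H3K9me3 lists held 34154 and 37789 peaks in del-cIDR, against 20895 and 41183 in WT. They covered 25.1 and 33.1 Mb in del-cIDR, against 9.85 and 29.6 Mb in WT. WT replicate 1 stood apart with the shortest list and the narrowest peaks, at a median of 369 bp, while the other 3 libraries had medians of 580 to 743 bp. Read depth is unknown because the peak lists hold no counts. The domains held 2.92% and 2.90% of all H3K9me3 peak bases of the del-cIDR libraries, and 3.75% and 2.69% of those of the WT libraries.

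Most domains were little wider than the limit. Their median width was 3246 bp, the quartiles were 3110 and 3430 bp, and 298 of the 379 (78.6%) were narrower than 3500 bp. There were 63 domains of 3500 to 4000 bp, 13 of 4000 to 5000 bp and 5 above that. Just inside it were 12:33152751-33155753, 14:87304761-87307763 and 8:64361085-64364087, each 3003 bp wide. Just outside it were 8:56019446-56022444 at 2999 bp, and 12:118321482-118324479 and 18:73389812-73392809 at 2998 bp. The width came mostly from joining libraries. In 243 of 379 no peak of any library reached 3000 bp by itself, and the widest peak inside a domain measured 5190 bp.

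The widest domain, 5:145623254-145629573, spanned 6320 bp. Peaks lay over 4041 and 4504 bp of it in del-cIDR, against 2288 and 4612 bp in WT. The next, 9:123728000-123734316, spanned 6317 bp, with 5516 and 4847 bp under peaks in del-cIDR and 4144 and 5162 bp in WT. It was the most evenly filled of the 5 widest, and the genotypes overlapped at both sites. The domain 4:61489399-61494859 spanned 5461 bp, with 2775 and 4514 bp in del-cIDR and 2628 and 3857 bp in WT. At 1:140890615-140895910, 5296 bp wide, 2326 and 2693 bp were covered in del-cIDR and 800 and 3499 bp in WT. At 14:105451273-105456299, 5027 bp wide, they were 1700 and 4378 bp in del-cIDR, against 985 and 3176 bp in WT. At these last 2 domains, bases shared by all 4 libraries came to 273 and 405 bp.

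Of the rest of the 12 widest, 5:15890613-15895516 was nearly filled by a single peak of WT replicate 2. There 83.7% and 83.3% of the width lay under peaks in del-cIDR, against 45.1% and 99.6% in WT. At 3:123991359-123995633, 4275 bp wide, no base was common to the 4 libraries, with 21.4% and 61.0% covered in del-cIDR and 15.6% and 55.4% in WT. At 7:11013245-11017516 the spread within del-cIDR was the widest of the 12, with 16.2% and 99.8% covered, against 50.2% and 57.9% in WT. Both del-cIDR libraries lay above both WT libraries at 2 of the 12. This was so in 35.9% of all domains, and in 31.9% of all regions with a peak of all 4 libraries outside the intervals. At 13:120074579-120079181 the shares were 81.2% and 99.7% in del-cIDR, against 48.6% and 66.8% in WT. At 3:93762277-93766861 they were 56.6% and 93.0% in del-cIDR, against 47.5% and 54.9% in WT. Its neighbour at 97100 bp, 3:93660904-93665176, was also among the 12. There the genotypes overlapped, with 41.8% and 66.5% in del-cIDR and 37.8% and 59.3% in WT.

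The libraries filled the domains to different degrees. Over all 379 domains, a total of 1.27 Mb, peaks covered 57.9% and 75.8% of the width in the del-cIDR libraries, against 29.1% and 62.8% in the WT libraries. Means were 66.8% ± 12.6 for the del-cIDR libraries and 46.0% ± 23.8 for WT (SD, n = 2 per genotype), and the genotypes overlapped, since del-cIDR replicate 1 lay below WT replicate 2. These shares come from the peaks that chose the domains and are given as a description, with no test. WT replicate 1 was the lowest of the 4 libraries in 318 domains, and del-cIDR replicate 2 was the highest in 213. Less than 10% of the width was covered in 4 and 1 domains in del-cIDR, against 64 and 2 in WT. At least 90% was covered in 33 and 100 domains in del-cIDR, against 1 and 46 in WT. The libraries stood in the same order in the 13268 narrower regions with a peak of all 4 libraries outside the intervals. Peaks covered 63.9% and 76.5% of their width in del-cIDR, against 35.1% and 68.1% in WT, with means of 70.2% and 51.6%. WT replicate 1 was the lowest in 9467 of these regions, and del-cIDR replicate 2 was the highest in 6037.

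**Figure D1:**
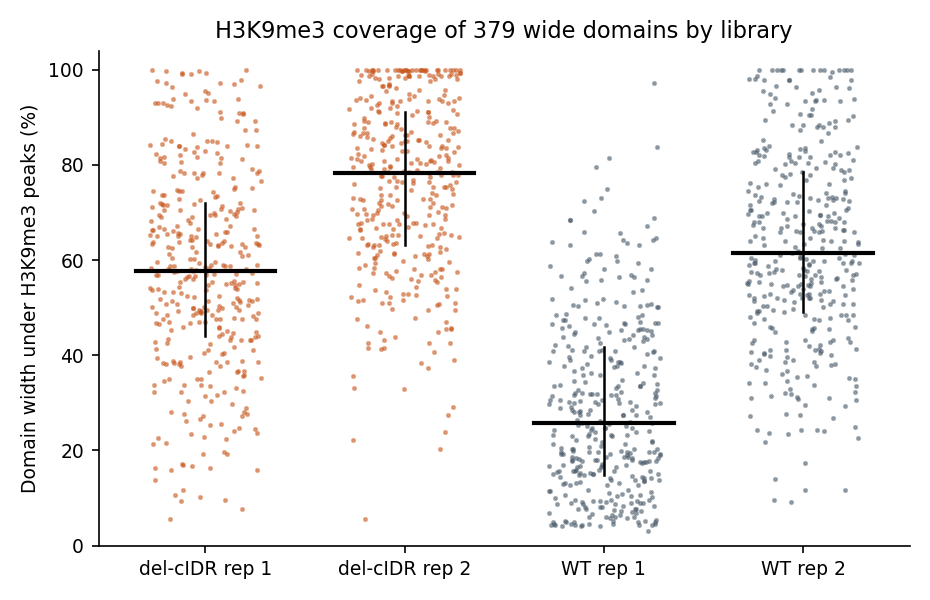
Share of each domain's width under H3K9me3 peaks, in percent, for the 2 del-cIDR and the 2 WT libraries. Each point is 1 of 379 domains, the thick line is the median and the thin line spans the quartiles. The medians are 57.7% and 78.3% in del-cIDR, against 25.8% and 61.6% in WT.

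Both del-cIDR libraries covered more of a domain than both WT libraries in 136 of 379 (35.9%), and less in 3 (0.792%). Over all 13647 regions with a peak of all 4 libraries outside the intervals these shares were 31.9% and 3.34%. The domains were drawn from the same H3K9me3 peaks, so nothing is read from either difference. The count depended on the library left out, an alternative chosen after seeing the data. Without WT replicate 1 both del-cIDR libraries were above the remaining WT library in 142 domains (37.5%) and below it in 99 (26.1%), beside 35.4% and 30.2% of all 13647 regions. Without WT replicate 2 they were above in 329 (86.8%) and below in 3 (0.792%), beside 77.8% and 5.2% of all regions. Without del-cIDR replicate 1 the counts were 249 (65.7%) and 9 (2.37%), beside 58% and 7.2%, and without del-cIDR replicate 2 they were 167 (44.1%) and 37 (9.76%), beside 41.6% and 14.6%. Leaving a library out can only keep or raise such a count in any set of regions. The shared direction of change in the domains and in the whole list was therefore fixed in advance, and nothing is read from it.

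At the 5 domains where del-cIDR was furthest above WT, del-cIDR peaks covered over 80% of the width in both libraries at 4, and in replicate 2 alone at the last. At 1:35309986-35313982, 3997 bp wide, 96.4% and 84.5% were covered in del-cIDR, against 10.2% and 24.3% in WT. At 4:49420032-49423643 the shares were 97.2% and 86.1% in del-cIDR, against 4.40% and 37.8% in WT, and at 7:16832523-16835565 they were 82.8% and 93.5%, against 20.4% and 24.8% in WT. At 3:20627098-20630160 they were 92.9% and 95.6% in del-cIDR, against 4.96% and 53.7% in WT. At 14:73289235-73292524 they were 51.4% and 100% in del-cIDR, against 10.5% and 11.7% in WT. All 5 hold a WT peak in both libraries, as the rule requires, and WT replicate 1 covered 20.4% or less of each. At 1:35309986-35313982 the fold of the strongest peak was 3.07 and 3.01 in del-cIDR, against 3.66 and 3.93 in WT. Coverage was thus higher and fold lower in del-cIDR. The del-cIDR bases there lay in 1 peak per library, of 3854 and 3379 bp. WT peaks covered 406 bp in 1 peak and 972 bp in 3. Over all regions fold fell with width, as given below, and the part of peak width here was not tested. Folds are the authors' own values for each peak within its list.

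The 3 domains with less coverage in del-cIDR lay on chromosomes 12, 3 and 8. At 12:72646306-72649570 the shares were 32.3% and 41.6% in del-cIDR, against 59.9% and 79.0% in WT. At 3:78456777-78459924 they were 47.6% and 64.6% in del-cIDR, against 64.7% and 82.8% in WT. At 8:3852887-3855972 they were 35.7% and 39.0% in del-cIDR, against 56.6% and 43.2% in WT.

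**Figure D2:**
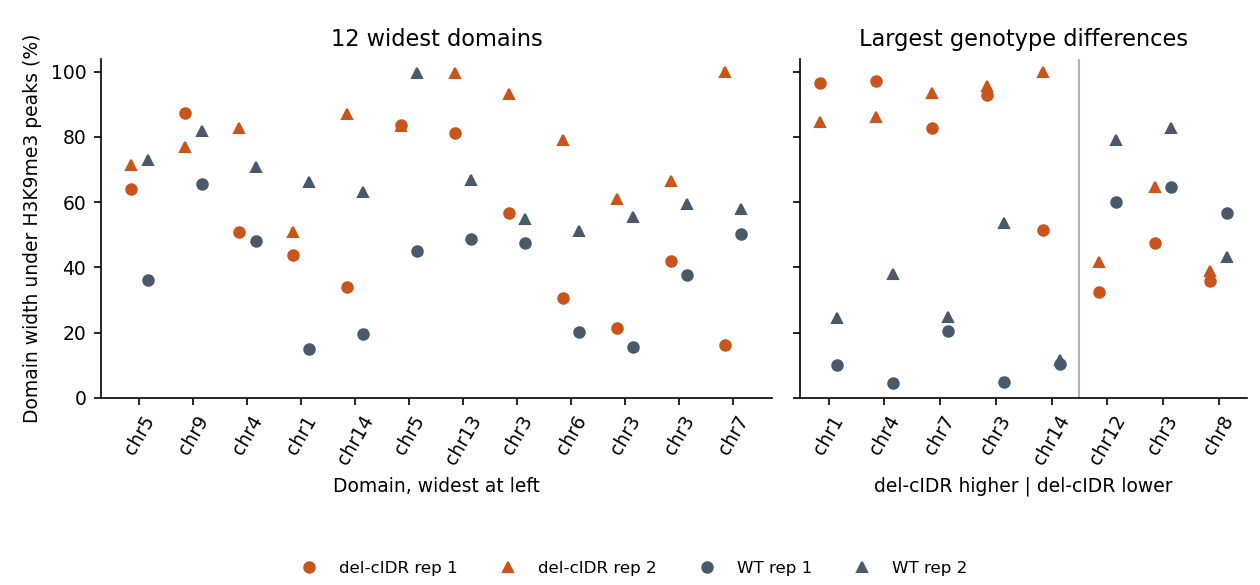
Share of the domain's width under H3K9me3 peaks, in percent, at the 12 widest domains (left) and at the 8 named for their genotype difference (right). Circles are replicate 1 and triangles replicate 2, with del-cIDR drawn left of WT. The genotypes overlap at 10 of the 12 widest domains, beside 63.3% of all 379 domains.

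The same count was taken for chromosomes 6, 8 and 12. Earlier results of these data had singled out chromosomes 6 and 8 and the distal part of 12. All of chromosome 12 was counted here. Both del-cIDR libraries were above both WT libraries at 6 of 30 domains on chromosome 6, 6 of 23 on chromosome 8 and 2 of 12 on chromosome 12. On the other chromosomes it was 122 of 314. Over all regions with a peak of all 4 libraries the share was 21.4% on chromosome 6, 23.3% on chromosome 8, 25.2% on chromosome 12 and 33.9% on the others, so it was lower on these chromosomes over the whole list as well. The covered share was 46.7% and 77.5% in del-cIDR on chromosome 6, against 30.1% and 61.7% in WT. On chromosome 8 it was 61.8% and 76.2% in del-cIDR, against 30.9% and 67.4% in WT. On chromosome 12 it was 42.8% and 72.8% in del-cIDR, against 29.1% and 71.2% in WT. Outside chromosomes 6, 8 and 12 it was 59.2% and 75.7% in del-cIDR, against 28.9% and 62.3% in WT. Both del-cIDR libraries were below both WT libraries at 0 domains on chromosome 6, 1 on chromosome 8, 1 on chromosome 12 and 1 on the others. Over all regions with a peak of all 4 libraries that share was 4.80%, 5.07% and 5.28% on chromosomes 6, 8 and 12. It was 2.96% on the others. The difference between chromosomes was not tested.

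In 311 of 379 domains (82.1%) at least 1 base lay under peaks of all 4 libraries, beside 82.5% of the narrower regions with a peak of all 4 libraries. In the other 68 domains no base was common to all 4. Of all domain bases 15.3% were covered by all 4 libraries (20.6% in the narrower regions), 25.3% by 3, 29.2% by 2 and 30.2% by 1. The edges were set most often by del-cIDR replicate 2, at 274 of 758 edges, and by WT replicate 2, at 242, followed by del-cIDR replicate 1 at 188 and WT replicate 1 at 64. The bases under peaks of both libraries, as a share of those under either, came to 50.1% for the del-cIDR pair and 32.1% for the WT pair. The 4 pairs of different genotype ranged from 30.1% to 51.9%, which spans both. Across the 379 domains the fold of the strongest peak kept its order between libraries (Spearman's rho 0.51 to 0.75 over the 6 pairs). For the covered share rho was -0.12 to 0.30. That share is divided by a width which the same 4 libraries set, unlike fold, so nothing is read from the contrast. These correlations are across domains, which are no replicates.

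Coverage was high over the middle of the domains and low beside them. Every base of a domain lies under a peak of some library, and any peak overlapping it would have been joined to it. This shape thus follows from the rule, and nothing is read from it. In the 500 bp around the centre 65.8% and 88.5% of the bases were covered in del-cIDR, against 37.7% and 71.0% in WT. From 3 to 5 kb from the centre they were 0.545% and 0.564% in del-cIDR, against 0.146% and 0.550% in WT. From 8 to 10 kb the values were higher again, at 6.29% and 8.08% in del-cIDR, against 3.45% and 7.38% in WT. Around the 13268 narrower regions with a peak of all 4 libraries the same 3 to 5 kb held 0.653% and 0.908% in del-cIDR, against 0.322% and 0.819% in WT, and the 8 to 10 kb held 3.40% and 4.33% in del-cIDR, against 1.66% and 3.94% in WT. A gap next to the region was seen around both kinds. Its presence follows from the joining, and how far it reaches was not tested.

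**Figure D3:**
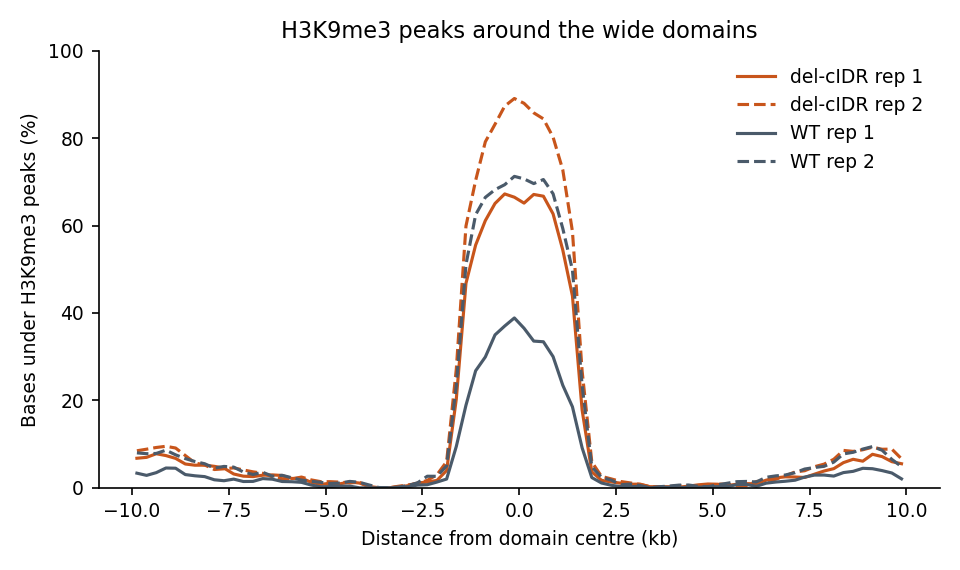
Percent of bases under H3K9me3 peaks against the distance from the domain centre, in bins of 250 bp, averaged over 379 domains for each library. Coverage is high over the middle of the domains, near 0 from 3 to 5 kb away, and higher again 8 to 10 kb away in all 4 libraries. The domains were joined from these same peaks, so high coverage inside and a gap right beside them follow from the rule.

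The domains were wide and of low fold, and fold fell with width over all regions of 4 libraries outside the 4 intervals. Ranked in each library among all 14034 regions of 4 libraries by the fold of their strongest peak, the domains had a median mean percentile of 21.4. The median fold was 3.09 and 2.87 in the del-cIDR lists and 3.49 and 3.09 in the WT lists. By −log10 q their median percentile was 48.1. By region width the median fold percentile was 96.1 below 500 bp, 52.4 at 1500 to 2000 bp and 30.3 at 2500 to 3000 bp. The −log10 q percentile stayed between 45.1 and 48.6 from 500 bp on. The 5 domains of at least 5000 bp had a median fold percentile of 1.04.

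**Figure D4:**
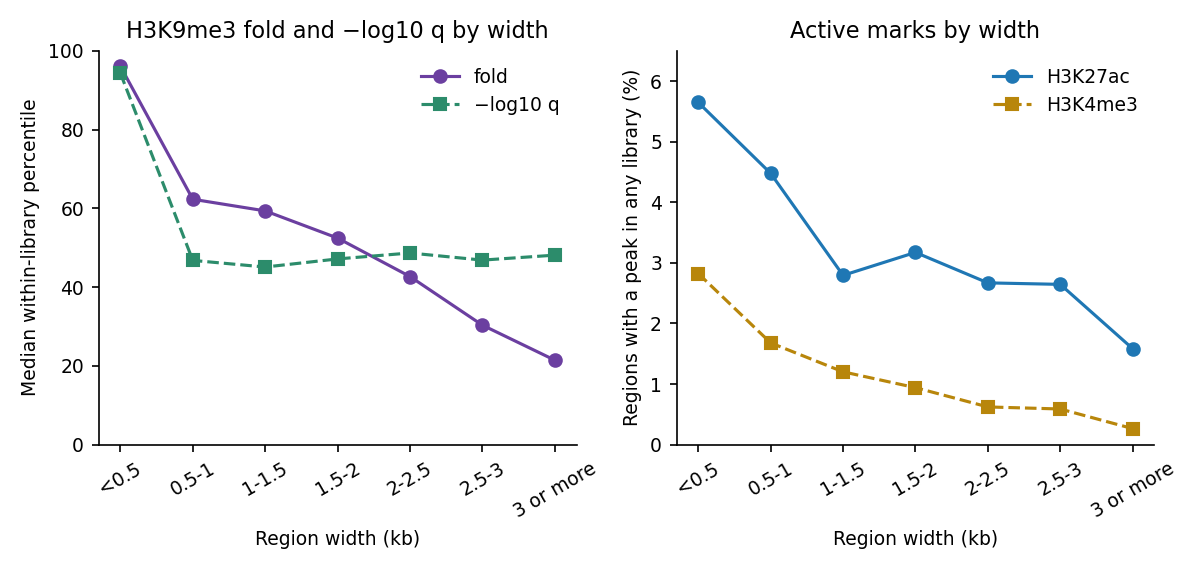
Left, median within-library percentile of H3K9me3 fold and of −log10 q by region width, for 13647 regions with a peak of all 4 libraries outside the 4 intervals. Right, percent of the same regions with an H3K27ac or an H3K4me3 peak in any library of that mark. The widest class holds the 379 domains, with a fold percentile of 21.4, 1.58% with H3K27ac and 0.264% with H3K4me3.

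A few domains were of high fold. At 14:3050301-3053969 the strongest peak had a −log10 q of 193 and 164 in del-cIDR, against 185 and 226 in WT. Among the 379 domains the second highest −log10 q in each library was 7.10 and 8.02 in del-cIDR, against 8.89 and 9.06 in WT. Narrower regions with a peak of all 4 libraries reached 3550 and 3615 in del-cIDR, against 3457 and 3691 in WT. The folds at 14:3050301-3053969 were 4.99 and 4.74 in del-cIDR, against 5.09 and 5.24 in WT. It had 70.8% and 86.9% of its width covered in del-cIDR, against 83.8% and 70.9% in WT, and the genotypes overlapped. The domain 14:15522640-15526250 had folds of 4.57 and 4.32 in del-cIDR, against 6.27 and 4.54 in WT, with 97.8% and 99.6% covered in del-cIDR and 68.8% and 84.0% in WT. At 18:8017992-8021178 the folds were 3.59 and 3.67 in del-cIDR, against 5.61 and 5.74 in WT, while 58.9% and 100% were covered in del-cIDR, against 22.2% and 45.4% in WT. The remaining 5 of the 8 domains of highest fold lay at 1:166177572-166181000, 6:11827453-11832034, 16:25391143-25394189, 1:64997148-65000194 and 15:43678187-43681583, with mean fold percentiles of 76.6 to 77.5.

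The domains were scattered over the genome. Chromosome 1 held the most, 37, followed by chromosome 2 with 32 and chromosome 6 with 30, and chromosome 19 held 5. Per 100 regions of 4 libraries there were 3.56 domains on chromosome 2, 3.43 on chromosome 10 and 3.42 on chromosome 9, against 1.60 on chromosome 16 and 1.77 on chromosome 17. In the first 10 Mb of the chromosomes lay 26 domains (6.86%), against 8.06% of the regions of 4 libraries. The median gap to the nearest domain was 1.70 Mb. Within 100 kb of another domain were 34 domains, and within 10 kb 6.

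Small groups of domains occurred. The 1-Mb window from 106 Mb of chromosome 3 held 4, the most of any window, and 6 other windows held 3. In that window the genotypes overlapped at 3:106091210-106094714, which had 1776 and 3219 bp covered in del-cIDR, against 1814 and 2899 bp in WT. Both del-cIDR libraries were above both WT libraries at the other 3, beside 35.9% of all domains and 31.9% of all 13647 regions. These domains were named after their values were seen, so nothing is read from this count. At 3:106048070-106051607 peaks covered 3183 and 2669 bp in del-cIDR, against 679 and 2024 bp in WT. At 3:106161900-106165423 they covered 2962 and 2318 bp in del-cIDR, against 1598 and 1835 bp in WT, and at 3:106346654-106349724 1999 and 2859 bp in del-cIDR, against 614 and 718 bp in WT. The closest pair, 13:12871627-12874863 and 13:12877842-12881195, was 2978 bp apart. Its members were among the lowest of all 14034 regions by fold, with 1.84 and 1.72 in del-cIDR and 2.12 and 1.98 in WT at the first, and 1.85 and 1.70 in del-cIDR and 2.27 and 1.90 in WT at the second. The genotypes overlapped in coverage at both, with 47.0% and 100% of the width in del-cIDR at the first, against 27.5% and 59.2% in WT. Other H3K9me3 regions were usually at hand. The median number within 50 kb of a domain was 4, against 3 around the narrower regions, and 24 domains (6.33%) had none.

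Few domains held a listed peak of an active mark. These marks took no part in choosing them. Of 379 domains, 372 (98.2%) had neither H3K4me3 nor H3K27ac in any library. An H3K4me3 peak touched 0 domains in each del-cIDR library, against 0 and 1 in the WT libraries. The 1 case was 5:26276377-26280433, where a peak with a fold of 5.82 reached 5 bp into the domain edge. An H3K27ac peak touched 4 and 3 domains in del-cIDR, against 2 and 4 in WT. The share with H3K4me3 was 0% for del-cIDR and 0.132% ± 0.187 for WT (SD, n = 2 per genotype, two-sided exact permutation test, p = 1). The share with H3K27ac was 0.923% ± 0.187 for del-cIDR and 0.792% ± 0.373 for WT (SD, n = 2 per genotype, two-sided exact permutation test, p = 1). The smallest p that 2 libraries against 2 allow is 0.333. For H3K4me3 only 1 library touched a domain, so every split of the libraries gives a difference of the same size. Its p could take no other value, and nothing is read from it.

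One domain had H3K27ac of all 4 libraries, 13:62655295-62658385. The peak crossed its right edge, and its fold was 7.45 and 9.32 in del-cIDR, against 7.37 and 6.71 in WT, with 177 and 200 bp inside the domain in del-cIDR and 172 and 93 bp in WT. At 4:108012380-108015870 a peak lay inside in both del-cIDR libraries, with folds of 4.76 and 5.77, and in WT replicate 2, with a fold of 5.60. At 6:74241258-74244448 it was found in both del-cIDR libraries, with folds of 4.94 and 4.04, and in WT replicate 1, with 3.95. The other 3 domains had a peak of 1 library each. They were 13:114729485-114733053 in del-cIDR replicate 1, with a fold of 4.17, and 10:88483660-88486746 and 18:70451228-70454232 in WT replicate 2, with 3.98 and 4.90. No domain had either mark in both libraries of 1 genotype and neither of the other. Of the 13268 narrower H3K9me3 regions, 36 had the del-cIDR pattern and 15 the WT pattern in H3K27ac, and 5 and 16 in H3K4me3. Both patterns are thus rare in H3K9me3 regions, and nothing is read from their absence in 379 domains. Over all H3K27ac regions of chromosomes 1 to 19, 6.22% had the del-cIDR pattern and 1.86% the WT pattern. Over all H3K4me3 regions these were 2.01% and 2.88%. Those regions all hold the mark, while only 6 domains hold H3K27ac and 1 H3K4me3, so the bases are unlike.

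Peaks of both active marks covered fewer bases in the domains than next to them. In H3K4me3, peaks covered 0 and 0 bases per kb of domain in del-cIDR, against 0 and 0.00395 in WT. In the 5000 bp on either side, with other H3K9me3 regions removed, they covered 2.45 and 2.42 bases per kb in del-cIDR, against 2.07 and 2.28 in WT. For H3K27ac, the domains held 1.19 and 0.858 bases per kb in del-cIDR, against 0.595 and 0.941 in WT, and the flanks held 6.32 and 6.62 in del-cIDR, against 5.11 and 3.65 in WT. The difference between domain and flank was -2.30 bases per kb for H3K4me3 and -4.53 for H3K27ac, with the domain lower in 4 of 4 libraries of each mark. Each gave p = 0.125 in an exact sign-flip permutation test, two-sided, the smallest that 4 libraries allow, so no such test could pass 0.05.

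The same held against the narrower H3K9me3 regions. H3K4me3 covered a mean of 0.000986 ± 0.00197 bases per kb of domain and 1.57 ± 0.251 of narrower region (SD, n = 4 libraries). H3K27ac covered 0.895 ± 0.244 in the domains and 3.84 ± 0.645 in the narrower regions (SD, n = 4 libraries). The domains were lower in 4 of 4 libraries of each mark, with p = 0.125 in the exact sign-flip permutation test, two-sided, for both. That contrast pools narrower regions of all widths. Below 500 bp they held 25.8 and 28.9 H3K4me3 bases per kb in del-cIDR, against 27.1 and 27.9 in WT. At 2500 to 3000 bp these were 0.869 and 0.775, against 0.859 and 1.09. H3K27ac at that width covered 1.73 and 2.49 in del-cIDR, against 1.56 and 1.07 in WT. The domains lay below this class in every library too, by least for H3K27ac of WT replicate 2. Any H3K4me3 peak was found in 0.264% of the domains and 1.05% of the narrower regions, and any H3K27ac peak in 1.58% and 3.13%. H3K9me3 fold percentile moved with width as given above, and its part in the difference was not tested. When peaks up to 1000 bp apart were joined, which gave 1108 domains, the difference to narrower regions was -0.173 bases per kb for H3K4me3 (exact sign-flip permutation p = 0.5) and -0.973 for H3K27ac.

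**Figure D5:**
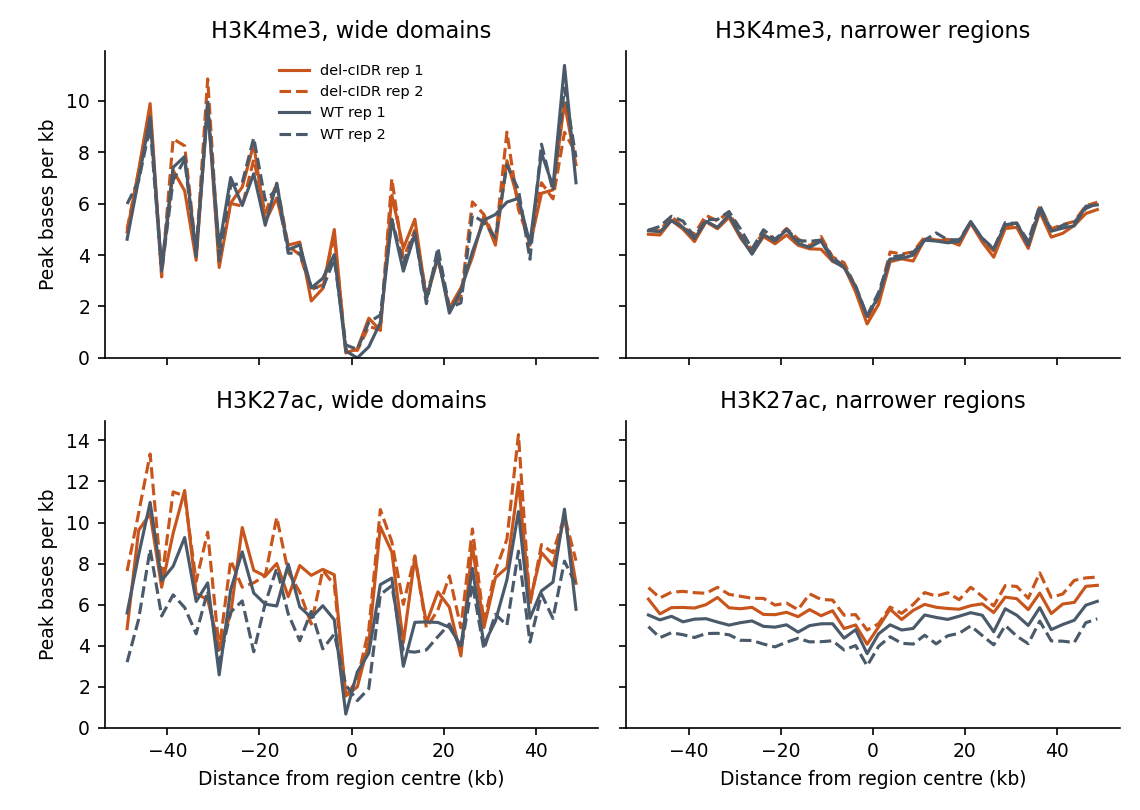
H3K4me3 (top) and H3K27ac (bottom) peak bases per kb against the distance from the region centre, in bins of 2500 bp, for the 379 domains (left) and the 13268 narrower regions (right), by library. Both marks are lowest at or next to the centre in every panel, and in the domains H3K4me3 comes near 0 there.

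From 20 to 50 kb out, peaks of both marks covered more bases around the domains than around the narrower regions. H3K4me3 covered 6.01 and 6.23 bases per kb in del-cIDR, against 6.11 and 6.26 in WT, and around the narrower regions 4.91 and 5.10 in del-cIDR, against 5.03 and 5.13 in WT. H3K27ac covered 7.61 and 8.50 bases per kb around the domains in del-cIDR, against 6.93 and 5.62 in WT, and around the narrower regions 6.02 and 6.65 in del-cIDR, against 5.31 and 4.52 in WT. The nearest H3K4me3 peak lay at a median of 105 and 103 kb from a domain in del-cIDR, against 102 and 98.3 kb in WT. From a narrower region it was 132 and 130 kb in del-cIDR, against 123 and 119 kb in WT. The nearest H3K27ac peak was 61.6 and 55.8 kb from a domain in del-cIDR, against 57.1 and 70.6 kb in WT, and 78.3 and 68.0 kb from a narrower region in del-cIDR, against 75.9 and 89.3 kb in WT. By these medians the domains were the nearer in 4 of 4 libraries of each mark (exact sign-flip permutation p = 0.125 for each, the smallest possible). At short range H3K4me3 went the other way in all 4 libraries. A peak lay within 10 kb of 6.33% and 7.39% of the domains in del-cIDR, against 5.80% and 7.12% in WT, and of 7.16% and 7.57% of the narrower regions in del-cIDR, against 7.64% and 7.85% in WT. For H3K27ac the shares within 10 kb were 15.6% and 14.0% of the domains in del-cIDR, against 14.5% and 12.9% in WT. Of the narrower regions they were 12.7% and 14.1% in del-cIDR, against 12.4% and 11.0% in WT, so the domains were lower in del-cIDR replicate 2 only. Between genotypes, the distance from domains differed by 3.78 kb for H3K4me3 (exact permutation p = 0.333) and by -5.13 kb for H3K27ac (exact permutation p = 0.667).

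Genotype-specific sites of the active marks were counted within 50 kb of the domains. Of 653 H3K27ac regions there, 37 (5.67%) had peaks in both del-cIDR libraries and in no WT library, beside 6.22% of all H3K27ac regions. The opposite pattern was found for 17 (2.60%), beside 1.86%. Of 258 H3K4me3 regions, 7 (2.71%) had the del-cIDR pattern and 3 (1.16%) the WT pattern, beside 2.01% and 2.88% of all H3K4me3 regions. The H3K27ac shares were near those of the whole list, and the H3K4me3 shares rest on 10 regions.

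The 21 regions of the same kind inside the zinc-finger intervals were set beside the domains. H3K27ac of any library was found in 5 of the 21 (23.8%), against 6 of the 379 domains (1.58%), and H3K27ac of all 4 libraries in 2, against 1. H3K4me3 was found in 2 of the 21, each time in 1 library. The nearest H3K27ac peak was at a median of 11.3 and 15.0 kb in del-cIDR, against 9.32 and 9.31 kb in WT, and the nearest H3K4me3 peak at 20.5 and 28.1 kb in del-cIDR, against 23.4 and 23.3 kb in WT. Their H3K9me3 coverage was 69.8% and 79.0% in del-cIDR, against 32.6% and 73.6% in WT, in the same order of libraries as in the domains. No test was made over the 21 regions, which come from 4 neighbourhoods.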

How the data were processed

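The authors deposited 1 peak list per library, broad peaks for H3K9me3 and narrow peaks for H3K4me3 and H3K27ac, 12 lists in all. Per the submitters' processing notes, fastp, BWA, SAMtools, Picard, MACS2 and featureCounts were used on GRCm39. The sources used here give no versions, no settings and no control library. The deposited lists give each peak a fold enrichment, which is a ratio over the expected background, −log10 values of its p-value and its q-value, and a score equal to 10 times the −log10 q. No listed peak has a q-value above 0.1 (broad) or 0.05 (narrow). Peaks were listed per library, the lists give no read depth, and intervals were therefore not computed.

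Peaks were joined with Python 3.11.15, checked against bedtools 2.31.1 and tested on simulated lists. Tests were exact permutation tests over libraries. The members and lists were chosen with earlier results of these data known. Regions were named by rule: the 12 widest, the 8 of highest mean fold percentile, up to 5 in each direction of largest genotype difference without overlap, those with an active mark of all 4 libraries, those at the width limit and the closest pair. Others named were chosen after their values were seen. Gene positions at hand are on GRCm38.p6, another build, so planned gene counts and marker checks were not made, and no sequence was read. No lists were identical.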

Additional observations from a re-analysis of the deposited data

How the results depend on the processing

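Of 115 values recomputed under alternative settings, 89 kept their direction, 3 reversed, 12 came to 0 and 11 counts or shares moved. In place of 379 there were 2 with H3K9me3 peaks of −log10 q of at least 5, 5 at a minimum width of 5000 bp, 4135 at 2000 bp, 1108 when peaks within 1000 bp were joined, and 147 with H3K9me3 lists of equal length (21705 peaks). With any 1 H3K9me3 library left out there were 154 to 385, the 385 without WT replicate 1, of which 348 of the 379 were overlapped. The covered share, del-cIDR minus WT, was 20.9 percentage points and 5.68 to 43.3 with 1 H3K9me3 library left out, 5.68 without WT replicate 1 and 43.3 without WT replicate 2. Active marks were lower in the domains than in flanks and narrower regions under all alternatives that gave a non-zero value. The difference to flanks was 0 for both marks with the 2 domains of −log10 q of at least 5. The share of domains with H3K4me3, del-cIDR minus WT, was -0.132 percentage points and 0 with that minimum, with peaks joined within 1000 bp, at 5000 bp and at an overlap of at least 200 bp, and -0.325 to 0 with 1 library of either mark left out. For H3K27ac it was 0.132 and 0 with that minimum and at 5000 bp. It reversed to -0.680 with H3K9me3 lists of equal length and to -0.132 with H3K27ac lists of equal length, and ranged from -0.132 (without H3K27ac WT replicate 1) to 0.396 with 1 library left out. The cause was not tested. Averaged over same-numbered pairs of libraries, the differences were 20.9, -0.132 and 0.132. With 2 libraries per genotype this average always equals the difference without pairing, so it is no check. They are counted among the 89 that kept their direction. For the covered share the pair of replicate 1 differed by 28.8 percentage points and that of replicate 2 by 12.9. The correlation of same-numbered deviations was -0.036 over the domains. Domains are no replicates, so this value cannot show whether the numbers pair the libraries. In both genotypes replicate 1 covered less of the domains than replicate 2. The shares were 57.9% and 75.8% in del-cIDR, and 29.1% and 62.8% in WT. Whether same-numbered libraries share a batch was not tested. Depth cannot be read from the lists, so domains without a listed peak of an active mark may hold signal below the q limits.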
